A study of Oncorhynchus mykiss with 12 samples.

Results

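The microRNAs (miRNAs) of dorsal skin were compared between yellow mutant and wild-type rainbow trout (Oncorhynchus mykiss). The labels give each sample only its tissue and its genotype, and the series text calls both colour forms the first-generation progeny of wild-type fathers and yellow mutant mothers. Yellow mutant skin and wild-type skin had 3 miRNA-Seq libraries each, of 12 libraries in the series. The age of the fish, the mutated gene and whether a library stands for 1 fish or a pool are not given, so the p-values reflect the spread among these libraries alone. The deposited values are in RPM, reads scaled to a total per library. The distinct miRNA sequences summed to 1001541 to 1003225 RPM in each library, so this total is close to their reads alone. A miRNA entered the comparison when its deposited value was at least 1 RPM in at least 3 of the 6 libraries, and entries with the same sequence counted once. This left 433 of the 1032 distinct sequences in the table, 268 with a known family name and 165 predicted ones, whose deposited names carry a prefix before the letter m that is left out here. Of the 1279 entries, 455 were known and 824 predicted. The selection used expression level and not the genotype labels. A miRNA at low level could still pass through the 3 libraries of 1 genotype alone. Its lack of overlap then follows from the filter, and such miRNAs are among those counted below without overlap or at a small p. Its edge lay at a third-highest value of 1.03 RPM for miR-10965-z, which passed, and of 0.990 RPM for m0200-5p, which did not.

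A miRNA is cut from a hairpin RNA by the enzymes Drosha and Dicer and loaded into an Argonaute protein. It then pairs with messenger RNAs mostly through its seed, bases 2 to 8 from its 5′ end, and lowers their translation and stability. Fish skin combines a living epidermis, a dermis rich in fibroblasts, scales, vessels and nerves with the black, yellow and silvery pigment cells of fish. Each of these cell types carries its own miRNAs, among them the miR-200 and miR-205 families of epithelia, miR-199 and miR-214 of mesenchyme, and miR-204 and miR-211 of pigmented cells in mammals.

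The sequences on which the results turn are shown 5′ to 3′ as the deposited table writes them, with T for U, and capitals mark the seed. The endings x, y and z are kept as deposited, and no source used here explains them. The first set holds the dominant miRNA of trout skin and a rare variant of it. The second holds the family of pigmented cells, and the third the epithelial miRNAs.
miR-199-x: cCCAGTGTtcagactacctgttc
miR-199-z: cCCAGTGTtcagactacgtgttc
miR-199-y: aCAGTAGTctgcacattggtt
miR-204-x: tTCCCTTTgtcatcctatgcct
miR-211-x: tTCCCTTTgtcatcctgtgcct
miR-204-y: gCAGGGACaacaaagggatgct
miR-205-x: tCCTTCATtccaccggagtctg
miR-205-z: tCCTTCATtccaccggagtctgtt
miR-200-y: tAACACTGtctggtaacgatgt
miR-141-y: tAACACTGtctggtaacgatg
miR-203-y: gTGAAATGtttaggaccacttg
Another set holds miR-16-x and miR-457-z, which share a seed, and miR-16-y, miR-30-z, miR-1788-y, miR-122-x, miR-722-y and miR-139-x, further miRNAs named in the comparison because their values did not overlap between genotypes. The last set holds some of the predicted miRNAs with small p-values or with near-absence in some libraries.
miR-16-x: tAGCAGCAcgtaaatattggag
miR-457-z: tAGCAGCAcatcattactggta
miR-16-y: tCCAGTATtgctcgtgctgct
miR-30-z: tGTAAACAtccacgactggaa
miR-1788-y: cAGGCAGCtaaagcaagtctgt
miR-122-x: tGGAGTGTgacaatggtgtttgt
miR-722-y: tTTTTTGCagaaacgtttcaga
miR-139-x: tCTACAGTgcatgtgtctccagt
m0153-5p: tGAATTCGgatgtcagttggacc
m0171-5p: tTCCCTATatcgtgcactacgt
m0236-5p: tTCCCTATgtagtgcaccattt
m0070-5p: cTATTCCCtatgttgtacact
m0319-3p: tGCACTTCgtagggaatagggt
m0033-3p: tGAGAACTagcgcaccattggt
m0059-5p: aGGATATGtctgggacaatgct
m0135-5p: tTGTGGACcctgagtttcaccc

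The values rest on 9095317 to 11502071 miRNA reads per library, as read from the steps of the low values. One read was worth 0.0869 to 0.110 RPM, and 3 reads, the limit that a count of 0 allows, were worth 0.261 to 0.330 RPM. These limits cover counting error only. Across the 433 miRNAs, Pearson's r of log2 values was 0.978 to 0.989 between libraries of the same genotype and 0.978 to 0.989 between libraries of different genotypes, with miRNAs as points that are not independent replicates. As a check of the tissue label, the epithelial miRNAs miR-205-x and miR-200-y each had at least 3598 RPM in every library. Known miRNAs carried 99.7 to 99.8% of the miRNA reads in each library.

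The main question was which miRNAs differ in level between the skins of the colour forms. No miRNA passed the test in either direction (limma on log2(RPM + 1), Benjamini-Hochberg adjusted over 433 miRNAs, 0.0% called, smallest adjusted p = 0.163). At an unadjusted p under 0.05, 20 miRNAs were higher and 9 were lower in yellow mutant skin, which is 4.62% and 2.08% of those tested. In 28 miRNAs (6.47%) every yellow mutant library lay above every wild-type library, and in 13 (3.0%) every one lay below. Either direction together took 6.7% of the miRNAs by p and 9.47% by absence of overlap. Among the 433 miRNAs, the authors' deposited table gives an unadjusted p under 0.05 to 10 with a positive and 10 with a negative log2 fold change. Of these 20, 17 were among the 29 from limma. Sequences that did not pass the level filter were not counted. The smallest p-values of the authors' own test among the 433 were 1.92e-06 for m0153-5p and 8.66e-05 for m0135-5p. By limma the unadjusted p of these miRNAs was 3.78e-04 and 0.0405. The authors' p-values were not adjusted here, so the absence of calls holds for limma and depends on the test.

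Most differences were small on the log2(RPM + 1) scale. The median log2 fold change was 0.12, with quartiles of -0.10 and 0.36, and 275 of 433 values (63.5%) were positive. This offset depended on the scaling, since with median-of-ratios scaling the median was 0.02, a shift of 0.10, and the share of positive values was 53.3%. Changes are therefore read against an overall median of 0.12. Absence of overlap also moved with the scaling: 24 miRNAs were higher and 19 lower without overlap under median-of-ratios scaling, and 19 and 12 of these were among the 28 and 13 above. On the log2(RPM + 1) scale 8 miRNAs had a log2 fold change of 1 or more in size, 4 in each direction. This count depends on the scale, which shrinks the changes of low values. For m0153-5p and m0171-5p it gave -1.65 and 1.73, beside -2.65 and 2.79 in the authors' deposited fold changes. Among the 95 miRNAs with a mean of at least 100 RPM, 66 had positive values and the range was -1.67 to 0.84. For 67 of these 95 the 95% confidence interval of the log2 fold change lay within 1 log2 unit on either side of 0, and the median half-width of the interval was 0.60. Below 10 RPM, where 235 of the miRNAs lie, the median half-width was 0.69.

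**Figure D1:**
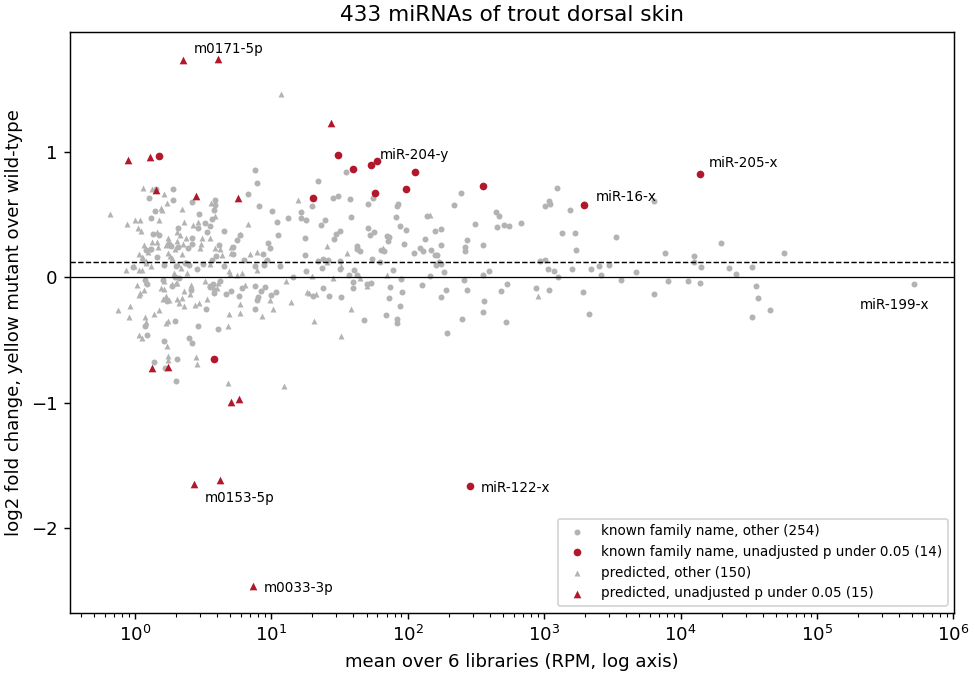
Log2 fold change of each of the 433 miRNAs, yellow mutant over wild-type (vertical axis, log2(RPM + 1) scale), against its mean over the 6 libraries (horizontal log axis, RPM). Circles are known and triangles predicted miRNAs, red ones have an unadjusted p under 0.05, and the dashed line is the median of 0.12. The 29 red symbols lie mostly at low means, like the 433 miRNAs as a whole, of which 235 have a mean under 10 RPM. miR-199-x stands alone at the far right near 0.

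The composition of the libraries was dominated by one miRNA of mesenchymal tissue. miR-199-x, the product of a family expressed in fibroblasts and developing bone of vertebrates, had 509229.6, 457648 and 552511 RPM in yellow mutant skin, against 581122, 539647 and 458397 RPM in wild-type skin. It made up 45.6 to 58.0% of the miRNA reads in each library, and the genotypes overlapped (log2 fold change -0.05, standard error 0.17). The 10 most abundant miRNAs together held 80.1 to 85.5% of the miRNA reads, and miR-199-x ranked first in all 6 libraries. miR-181-x, of a family known for its role in lymphocyte development in mammals, came next with 54776, 63428 and 65786 RPM in yellow mutant skin, against 53566, 50268 and 57094 RPM in wild-type skin. Its log2 fold change was 0.19, and the highest wild-type library stood above the lowest yellow mutant one.

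The other abundant miRNAs also overlapped between genotypes. miR-10-x, encoded within Hox gene clusters, had 38691, 60640.4 and 27328 RPM in yellow mutant skin, against 41310.2, 50489 and 53371 RPM in wild-type skin, and its level in the yellow mutant spanned the whole wild-type range. miR-100-x, a relative of miR-99 encoded beside let-7 and miR-125 genes in many animals, had 33763, 48827 and 24531 RPM in yellow mutant skin, against 33998, 39304 and 42914 RPM in wild-type skin. let-7-x, a miRNA that marks differentiated cells, had 37762, 39374 and 26979 RPM in yellow mutant skin, against 28273, 38160.0 and 43341 RPM in wild-type skin. In each of these 3, replicate 3 was the lowest yellow mutant library. miR-199-y, from the same family as miR-199-x, had 43097, 24427 and 22734 RPM in yellow mutant skin, against 28039, 38232 and 43329.6 RPM in wild-type skin, with replicate 1 high and replicates 2 and 3 low in the mutant. The remaining 4 of the 10 were miR-26-x, miR-27-y, miR-125-x and miR-22-y. Their log2 fold changes were 0.08, 0.02, 0.07 and 0.27, of which the first 3 turned negative under median-of-ratios scaling (-0.04, -0.10 and -0.05).

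Among miRNAs with a mean of at least 10 RPM in the higher genotype, the 8 with the smallest p and every yellow mutant library above every wild-type one were miR-204-y, miR-199-z, miR-205-z, miR-1788-y, miR-16-x, miR-16-y, miR-30-z and miR-457-z. None passed the adjusted threshold, and all 8 had the same adjusted p (limma, Benjamini-Hochberg adjusted p = 0.686). They were chosen by p, so their separation is a description. Under median-of-ratios scaling 7 of the 8 had no overlap, and miR-16-x overlapped. miR-204-y, the partner of the pigment-cell and lens miRNA miR-204-x in its family, had 70.9, 53.7 and 86.5 RPM in yellow mutant skin, against 32.3, 32.5 and 46.6 RPM in wild-type skin. Its lowest yellow mutant library stood above its highest wild-type library, and the difference was 0.90 on the log2 scale (standard error 0.29, limma, unadjusted p = 0.0108).

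miR-16-x, the most abundant of the 8 and a repressor of cell-cycle genes such as cyclins in mammals, had 2646, 1819 and 2659 RPM in yellow mutant skin, against 1396, 1721 and 1603 RPM in wild-type skin. Yellow mutant replicates 1 and 3 were alike and high, while replicate 2 lay close above the highest wild-type library. On the log2 scale the difference was 0.58 (standard error 0.24). Its family partner miR-16-y had 55.6, 65.1 and 93.6 RPM in yellow mutant skin, against 38.2, 41.1 and 52.1 RPM in wild-type skin, with mutant replicate 3 the highest of the 6. miR-457-z, a fish miRNA with the seed of miR-16-x, had 52.8, 56.1 and 76.1 RPM in yellow mutant skin, against 39.6, 38.3 and 43.3 RPM in wild-type skin. The wild-type libraries of miR-457-z were tight and the mutant ones more spread.

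miR-199-z differs from the dominant miR-199-x at 1 base and had 106.6, 131 and 121 RPM in yellow mutant skin, against 72.2, 85.8 and 62.6 RPM in wild-type skin. Unlike miR-199-x it showed no overlap, at a log2 fold change of 0.70 against -0.05 for miR-199-x, and this difference between the 2 was not tested. miR-205-z, an epithelial miRNA, had 109, 122 and 213.6 RPM in yellow mutant skin, against 79.3, 68.0 and 90.3 RPM in wild-type skin, with yellow mutant replicate 3 far above the rest. miR-30-z, of a family widely expressed in differentiated tissues, had 20.8, 26.4 and 27.3 RPM in yellow mutant skin, against 16.9, 16.5 and 13.5 RPM in wild-type skin. Both genotypes were narrow in miR-30-z, and its log2 fold change was 0.63. miR-1788-y had 25.6, 32.7 and 68.3 RPM in yellow mutant skin, against 14.99, 18.6 and 25.4 RPM in wild-type skin. Its lowest mutant library exceeded its highest wild-type library by under 1 RPM, and mutant replicate 3 carried most of the difference.

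Only 3 miRNAs met the same rule in the other direction, and under median-of-ratios scaling miR-122-x overlapped while the other two did not. miR-122-x, the miRNA of hepatocytes in vertebrates, had 150.1, 79.7 and 71.4 RPM in yellow mutant skin, against 1094, 162 and 158 RPM in wild-type skin. One wild-type library, replicate 1, stood far above the other 5, and the log2 fold change of -1.67 (standard error 0.72) was -0.75 without it. miR-722-y had 70.2, 75.4 and 72.5 RPM in yellow mutant skin, against 75.5, 113 and 96.6 RPM in wild-type skin, and the gap between the highest mutant and the lowest wild-type library was under 1 RPM. miR-139-x, which in mammals lies in an intron of a phosphodiesterase gene, had 39.5, 45.6 and 40.2 RPM in yellow mutant skin, against 46.5, 54.0 and 59.4 RPM in wild-type skin, again with a gap of under 1 RPM. Their log2 fold changes were -0.36 and -0.34, each with a standard error of 0.25 to 0.26.

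**Figure D2:**
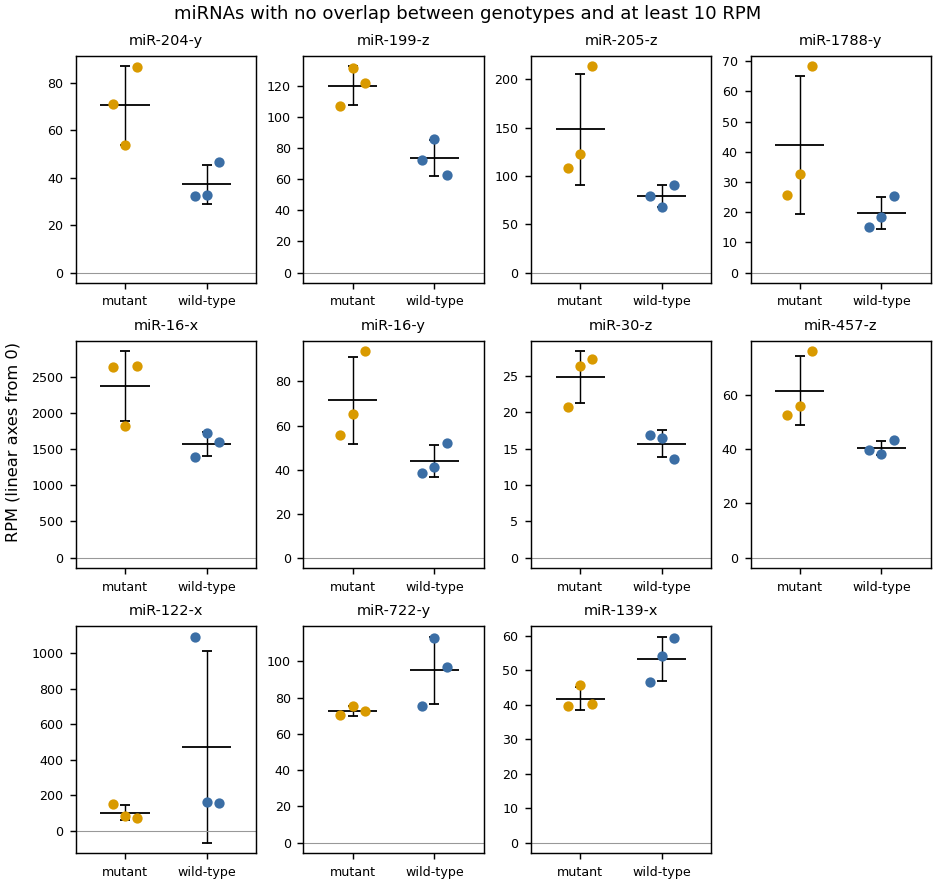
RPM in each library (points, replicates 1 to 3 from left to right; linear axes from 0) of the 11 named miRNAs without overlap, yellow mutant left of wild-type. Bars give the mean and 1 SD (n = 3 each). In miR-122-x the wild-type mean is set by 1 library at 1094 RPM, while miR-204-y, miR-199-z and miR-30-z are separated without a single extreme library.

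Epithelial miRNAs were higher on average in yellow mutant skin, with no member past the adjusted threshold. All 12 members of the list (families miR-141, miR-200, miR-203, miR-205 and miR-429) had positive log2 fold changes, from 0.24 to 0.84. Their median was 0.62, and 0.50 under median-of-ratios scaling, beside 0.12 and 0.02 over all miRNAs. All 12 lay above the overall median, and 3 had an unadjusted p under 0.05, beside 4.62% of all miRNAs higher by p. Of these 3, 2 were miR-205-x and miR-205-z, which differ only at the ends. In RPM 1 of the 12 showed no overlap, beside 6.47% of all miRNAs higher without overlap. Several members are copies or partners in 1 family, so they are not independent of each other. Because whole skin was measured, a different number of cells of a type and a different amount of RNA per cell cannot be told apart here or in the other lists.

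miR-205-x, a miRNA of the basal epidermis in mammals, was the most abundant of them with 11763, 15089.6 and 27055 RPM in yellow mutant skin, against 8161, 8744 and 12233 RPM in wild-type skin. Yellow mutant replicate 3 was the highest of all 6, while mutant replicate 1 lay below the highest wild-type library. Its overlap depended on the scaling. Under median-of-ratios scaling the values were 11912, 14225 and 24744 RPM in yellow mutant skin, against 9181, 9408 and 11289 RPM in wild-type skin, without overlap. On the log2 scale it was higher by 0.82 (standard error 0.31, limma, unadjusted p = 0.0246). miR-205-z is the same sequence with 2 further end bases and stood at 0.822% of its level. miR-205-y had 105, 61.4 and 148 RPM in yellow mutant skin, against 67.8, 56.0 and 73.2 RPM in wild-type skin, low in mutant replicate 2.

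The miR-200 family keeps epithelial cells from turning mesenchymal by repressing the ZEB factors in mammals. miR-200-y had 5209, 8816 and 8978 RPM in yellow mutant skin, against 3598, 4570.0 and 7054 RPM in wild-type skin. miR-200-z had 317, 476 and 539 RPM in yellow mutant skin, against 196, 242 and 376 RPM in wild-type skin. In both, mutant replicates 2 and 3 were the highest of the 6 libraries, and mutant replicate 1 lay below the highest wild-type library. miR-141-y, which shares their seed AACACTG and lacks only the last base of miR-200-y, had 827, 1829 and 1263 RPM in yellow mutant skin, against 521, 737 and 1468 RPM in wild-type skin. The 3 miRNAs of this seed summed to 6353, 11120.3 and 10779 RPM in yellow mutant skin, against 4316, 5549 and 8898 RPM in wild-type skin, and the genotypes overlapped. miR-429-y, a further member of the family, had 44.2, 95.7 and 65.2 RPM in yellow mutant skin, against 29.2, 39.7 and 62.0 RPM in wild-type skin.

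miR-203-y, which drives keratinocytes of mammals out of division and into differentiation, had 771, 2234 and 1681 RPM in yellow mutant skin, against 539, 833 and 1457 RPM in wild-type skin. Its spread within the mutant was wider than its difference between genotypes, and its log2 fold change of 0.71 had a standard error of 0.44. Over the 12 miRNAs together the sums were 19201, 28814 and 40025 RPM in yellow mutant skin, against 13231, 15343 and 22895 RPM in wild-type skin. Mutant replicates 2 and 3 exceeded all wild-type libraries, and wild-type replicate 3 lay above mutant replicate 1. Leaving out 1 library at a time kept the list's median between 0.39 and 0.90.

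**Figure D3:**
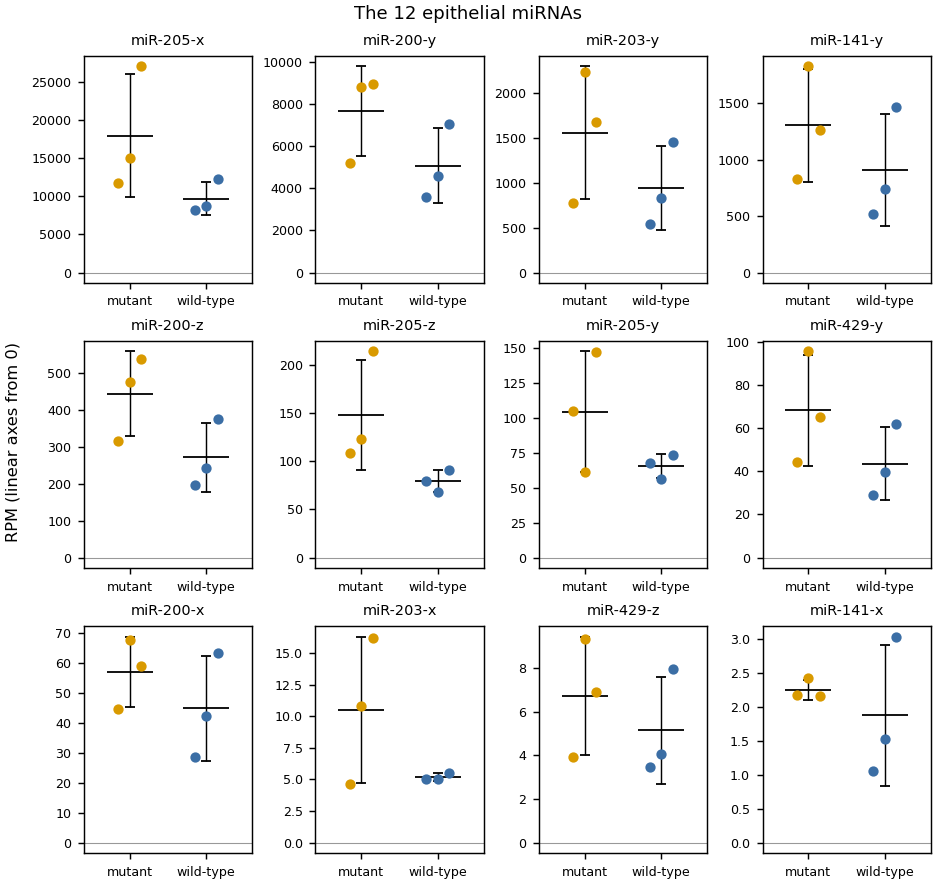
RPM in each library (points, replicates 1 to 3 from left to right; linear axes from 0) of the 12 epithelial miRNAs in order of abundance, yellow mutant left of wild-type, with mean and 1 SD (n = 3 each). Every mutant mean lies above its wild-type mean, and in 11 of the 12 panels the points of the genotypes overlap.

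miRNAs reported to act in melanocytes of mammals or fish had a median below that of all miRNAs. Of the 27 members 16 had positive and 11 negative log2 fold changes, and 10 lay above the overall median. The list's median was 0.04, and it turned to -0.08 under median-of-ratios scaling and ran from -0.03 to 0.14 when 1 library was left out. Only miR-204-y had an unadjusted p under 0.05. Families measured were 14 of the 15 listed, and miR-340 had no member.

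miR-204-x, which is abundant in pigmented epithelium of the vertebrate eye, was the leading member with 14786, 11969 and 12417 RPM in yellow mutant skin, against 9100.2, 10643 and 16076 RPM in wild-type skin. Wild-type replicate 3 was the highest and wild-type replicate 1 the lowest of the 6, so the mutant values fell inside the wild-type range. miR-211-x, which mammals encode in the melanocyte gene TRPM1, had 4.35, 4.07 and 3.30 RPM in yellow mutant skin, against 2.02, 2.62 and 3.35 RPM in wild-type skin. It reads like miR-204-x with the substitution A17G, counted from the 5′ end, and its mean was 0.0263% of that of miR-204-x. The same seed, TCCCTTT, occurs in miR-204-z, and the 3 together summed to 14793, 11974 and 12423 RPM in yellow mutant skin, against 9104, 10647 and 16081 RPM in wild-type skin.

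Other members with the smallest p-values came from the miR-183/96/182 cluster of sensory cells and from miR-193 and miR-137. miR-193-y, a repressor of growth genes in mammalian melanoma cells, had 76.3, 123 and 98.2 RPM in yellow mutant skin, against 55.1, 54.9 and 92.4 RPM in wild-type skin. miR-182-x, a regulator of the pigment-cell factor MITF in mammals, had 36.1, 58.9 and 39.0 RPM in yellow mutant skin, against 26.8, 25.8 and 42.9 RPM in wild-type skin. miR-96-x, from the same cluster, had 21.0, 62.0 and 24.3 RPM in yellow mutant skin, against 22.3, 14.95 and 24.2 RPM in wild-type skin. In miR-182-x and miR-96-x mutant replicate 2 was the highest library, and the genotypes overlapped in each of the 3.

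miR-137-y, which represses Mitf in mammalian melanocytes, had 24.9, 12.8 and 21.2 RPM in yellow mutant skin, against 12.01, 12.99 and 15.2 RPM in wild-type skin. Mutant replicate 2 sat within the wild-type range. miR-145-y, shared between the pigment list and the smooth muscle list, had 449, 644 and 322 RPM in yellow mutant skin, against 523, 581 and 646 RPM in wild-type skin. miR-221-y, a repressor of the receptor KIT in mammals, had 57.6, 115 and 54.7 RPM in yellow mutant skin, against 90.0, 70.1 and 116 RPM in wild-type skin. Both had negative log2 fold changes (-0.36 and -0.33) and overlapping libraries. The abundant miR-148 and miR-152 members, which share the seed CAGTGCA and in mammals target Mitf, had log2 fold changes of 0.04 for miR-152-y and 0.02 for miR-148-y, and each turned negative under median-of-ratios scaling (-0.08 and -0.10).

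Muscle miRNAs had a median log2 fold change of 0.43, with 8 of 9 positive and none at an unadjusted p under 0.05, and the median ran from 0.16 to 0.72 when 1 library was left out. miR-206-y, a miRNA of skeletal muscle, had 718, 1223 and 424 RPM in yellow mutant skin, against 487, 372 and 838 RPM in wild-type skin. Mutant replicate 2 and wild-type replicate 3 were the highest libraries of their genotypes. The 9 muscle miRNAs summed to 1829, 2895 and 1315 RPM in yellow mutant skin, against 1504, 969.6 and 2038 RPM in wild-type skin, and in each genotype the highest sum was over 2 times the lowest. The level of muscle miRNAs thus differed among libraries of the same genotype, and its part in the other differences was not tested.

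Vessel and red blood cell miRNAs had list medians below the overall median. The smooth muscle list, miR-143 and miR-145, had 0 of 4 positive values and a median of -0.22, or -0.27 to -0.11 with 1 library left out. Its main member miR-143-y had 9414, 6519.8 and 7873 RPM in yellow mutant skin, against 6672, 7341 and 10516 RPM in wild-type skin. For miR-126-y, the endothelial miRNA of vertebrates, the values were 12228, 12352 and 9449.9 RPM in yellow mutant skin, against 10645, 11638 and 12279 RPM in wild-type skin. Both ranges overlapped almost fully. miR-451-x, a miRNA of red blood cells, had 35.1, 137 and 35.9 RPM in yellow mutant skin, against 85.8, 72.5 and 52.7 RPM in wild-type skin, with mutant replicate 2 high and the other 2 mutant libraries low.

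All 9 leukocyte miRNAs had log2 fold changes above the overall median, from 0.13 to 0.48, with a list median of 0.21 and 0.10 under median-of-ratios scaling. With 1 library left out the median was 0.20 to 0.38. None had an unadjusted p under 0.05 and none was free of overlap. miR-146-x, a brake on innate immune signalling, had 6485, 11118 and 7031 RPM in yellow mutant skin, against 5692, 6667 and 8951 RPM in wild-type skin. miR-142-x, a miRNA of white blood cells in vertebrates, had 355, 649 and 644 RPM in yellow mutant skin, against 336, 384 and 419.6 RPM in wild-type skin. For miR-142-x, mutant replicate 1 lay inside the wild-type range while replicates 2 and 3 lay above it. The teleost miRNAs miR-462 and miR-731, which interferon induces in fish, had 5 of 5 positive values and a median of 0.22, or 0.15 to 0.45 with 1 library left out. Of these, miR-462-x had 1181, 816 and 1710.2 RPM in yellow mutant skin, against 705, 861 and 831 RPM in wild-type skin, with mutant replicate 2 inside the wild-type range.

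Families linked to the cell cycle included miR-15/16 and the miR-17 to miR-92 group. The miR-15/16 list had 5 of 6 positive values and a median of 0.35. In it 2 members were higher at an unadjusted p under 0.05, beside 4.62% of all miRNAs. The 6 members summed to 3875, 2885 and 3854 RPM in yellow mutant skin, against 2343, 2732 and 2748 RPM in wild-type skin, without overlap. Of the 26 list sums, 3 were higher without overlap (11.5%), beside 6.47% of single miRNAs. Under median-of-ratios scaling these sums were 3924, 2720.1 and 3524 RPM in yellow mutant skin, against 2636, 2939.9 and 2536 RPM in wild-type skin, and the genotypes overlapped. Of the miR-17 to miR-92 group, whose clusters promote proliferation in vertebrates, 12 of 14 had positive values with a median of 0.24, or 0.19 to 0.36 with 1 library left out. Their sums were 5633, 4977 and 6241 RPM in yellow mutant skin, against 4845, 4398 and 4792 RPM in wild-type skin, and no member had an unadjusted p under 0.05. The sums did not overlap as deposited but did under median-of-ratios scaling, at 5704, 4692 and 5708 RPM in yellow mutant skin, against 5451, 4732 and 4422 RPM in wild-type skin. The leading member miR-92-y overlapped between genotypes, and its log2 fold change of 0.09 turned to -0.02 under median-of-ratios scaling. let-7 had 1 of 5 positive values and a median of -0.07, or -0.25 to 0.10 with 1 library left out.

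Over the 26 lists, 14 had a median above 0.12. The fibroblast and bone list, which holds miR-199, miR-214, miR-29, miR-140 and miR-455, had 10 of 12 positive values and a median of 0.22, or 0.07 to 0.33 with 1 library left out. Gut and neural lists had medians of 0.34 over 5 and 0.28 over 4 miRNAs, none of them above 100 RPM on average. With 1 library left out these medians ran from 0.02 to 0.67 and from 0.15 to 0.41. Their leading members were miR-192-x, with 52.8, 70.6 and 189.7 RPM in yellow mutant skin, against 111, 58.8 and 46.2 RPM in wild-type skin, and miR-9-z, with 18.7, 21.0 and 16.8 RPM in yellow mutant skin, against 17.3, 16.6 and 15.6 RPM in wild-type skin. In miR-192-x mutant replicate 3 and wild-type replicate 1 were high. The medians of the Hox cluster and miR-23/24/27 lists were 0.09 and 0.09 and changed sign under median-of-ratios scaling (-0.02 and -0.03). The miR-101 list was positive in 3 of 3 members and the list of miR-103 and miR-107 in 2 of 2, with medians of 0.35 and 0.23.

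**Figure D4:**
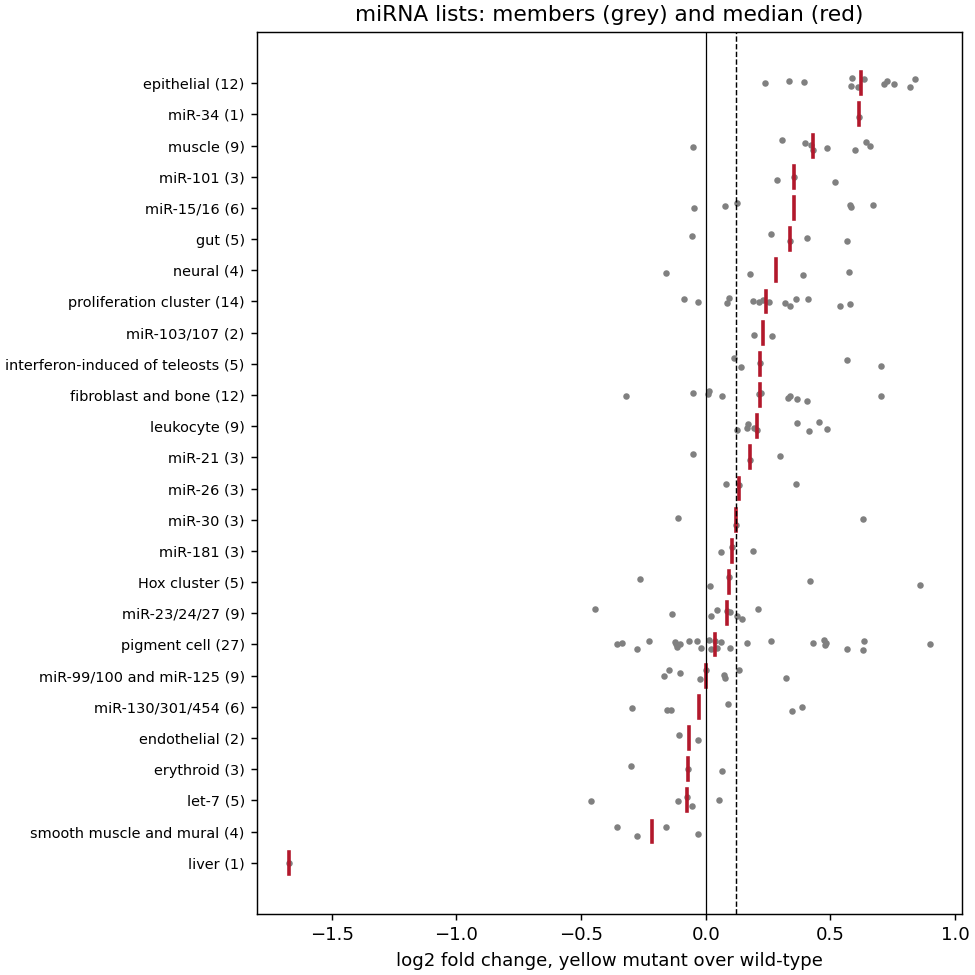
Log2 fold change, yellow mutant over wild-type (horizontal axis), of the members of 26 miRNA lists (grey points) with each list's median (red bar) and the number of members in brackets. The dashed line marks the median over all 433 miRNAs, 0.12. All 12 points of the epithelial list, median 0.62, lie to the right of the dashed line, the single miR-34 miRNA lies next to that median at 0.61, and the single liver miRNA, miR-122-x, lies alone at -1.67.

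Seeds group miRNAs that can pair with the same messenger RNAs. The 433 miRNAs held 355 different seeds, and 53 seeds were shared by 131 miRNAs. Among the shared seeds, 4 had sums in which every yellow mutant library lay above every wild-type one, which is 7.55% beside 6.47% of single miRNAs. Under median-of-ratios scaling the seed sums of miR-16-x, miR-107-y and miR-29-x overlapped and that of the seed TCCCTAT did not, while CCTTCAT, the seed of miR-205-x, became free of overlap and 2 other seed sums were lower without overlap. The seed AGCAGCA of miR-16-x and miR-457-z summed to 2699, 1875 and 2735 RPM in yellow mutant skin, against 1435, 1759 and 1647 RPM in wild-type skin, which is almost all miR-16-x. The seed GCAGCAT of miR-107-y and miR-103-y, a pair linked to insulin sensitivity in mammals, summed to 205, 221 and 237 RPM in yellow mutant skin, against 187, 191 and 187 RPM in wild-type skin. Wild-type values of this pair were within 4 RPM of each other, and the mutant means exceeded them by little (221 ± 16.04 RPM in the mutant, 188 ± 1.98 RPM in wild-type skin, SD, n = 3 each). The seed CTGATTT joined miR-29-x, a repressor of collagen genes, with a predicted miRNA, and the seed TCCCTAT joined 3 predicted miRNAs. The first had sums of 74.6, 73.8 and 94.4 RPM in yellow mutant skin, against 63.2, 56.3 and 71.5 RPM in wild-type skin. For the second they were 5.65, 7.04 and 10.5 RPM in yellow mutant skin, against 4.04, 4.04 and 4.82 RPM in wild-type skin. This second sum includes m0236-5p, which passed the level filter only through its mutant libraries. Its lack of overlap, under either scaling, is therefore not independent of the filter.

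In 77 families both an x and a y miRNA were present, and the x member was the more abundant in 45. The log2 fold changes of the 2 had the same sign in 54 of the 77. Taking log2(x + 1) minus log2(y + 1) within each library compares the members without the scaling between libraries. In 7 families (9.09%) this ratio did not overlap between genotypes, a share close to the 9.47% of single miRNAs without overlap, so these families are given as values. For miR-204 it was 7.68, 7.77 and 7.15 in yellow mutant skin, against 8.09, 8.31 and 8.40 in wild-type skin, so the share of miR-204-y was larger in every mutant library, while miR-204-x overlapped between genotypes. For miR-193 it was -0.84, -1.44 and -1.26 in yellow mutant skin, against -0.79, -0.29 and -0.81 in wild-type skin, and the highest mutant value lay just below the lowest wild-type one. The ratio was also lower in the mutant in miR-7132 and miR-139, and higher in miR-3618, miR-142 and miR-725. In miR-725, a fish family, it was -3.94, -4.01 and -4.10 in yellow mutant skin, against -4.24, -4.13 and -4.63 in wild-type skin. Among these 7 the differences of means, mutant minus wild-type, ran from -0.73 in miR-204 to 0.31 in miR-725. Over all 77 families they ran from -0.74 in miR-132 to 0.67 in miR-187, both with overlap.

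Many miRNAs in the table are near copies of a more abundant one. Pairs that differed by at most 1 substitution, with or without end differences, numbered 74, among 112 of the 433 miRNAs. Of these pairs, 45 had a substitution, some of them with end differences too, and 29 had end differences only. In 53 of the pairs both members had the same sign of log2 fold change. miR-199-z carries the substitution C18G relative to miR-199-x, counted from its 5′ end, and its mean was 0.0187% of that of miR-199-x. miR-99-x carries A16T relative to miR-100-x and also differs from it by 1 end base, and miR-148-y carries A10T relative to miR-152-y. These 2 had 38.0% and 55.3% of the level of their partners. How reads of such pairs were divided is not given, so the values of the rarer member of a pair are uncertain.

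Of the 165 predicted miRNAs, 15 had an unadjusted p under 0.05, 8 higher and 7 lower, which is 9.09% beside 6.7% of all miRNAs and 5.22% of the known ones. Only 2 of the 165 averaged at least 100 RPM, m0001-5p and m0003-3p. The sequence of m0003-3p differs from that of the known miR-205-y only by 1 end base, at a mean of 146 RPM beside 85.1 RPM. Lists were matched by family number, so m0003-3p was not counted in the epithelial list. The smallest p belonged to m0153-5p, which had 0.522, 1.10 and 0.618 RPM in yellow mutant skin, against 3.46, 7.09 and 3.45 RPM in wild-type skin. These values stand for 6, 10 and 6 reads in yellow mutant skin, against 36, 65 and 33 reads in wild-type skin. Every mutant library lay well below every wild-type one, with a log2 fold change of -1.65 (standard error 0.32, limma, unadjusted p = 3.78e-04, Benjamini-Hochberg adjusted p = 0.163). This and the following predicted miRNAs fall outside the rule for named miRNAs and were chosen after their values were seen. By p, m0095-5p, whose sequence is not shown above, ranked between m0171-5p and m0236-5p. It had 35, 30 and 44 reads in yellow mutant skin, against 87, 74 and 72 reads in wild-type skin. Its RPM values were lower in the mutant without overlap, also under median-of-ratios scaling.

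Several of these predicted miRNAs share letters. The motif TTCCCTA or its reverse complement TAGGGAA occurred in 9 miRNAs, all predicted, which is 5.45% of the 165 predicted ones and 0 of the 268 known ones. In the 599 sequences that did not pass the level filter it occurred in 4.01%. Of the 9, 7 had positive and 2 negative log2 fold changes, and 5 had an unadjusted p under 0.05. The motif was picked from predicted miRNAs with small p-values, so these counts follow from the choice. m0171-5p, shown above with the motif at its 5′ end, had 4.17, 2.64 and 5.05 RPM in yellow mutant skin, against 0.288, 1.42 and 0 RPM in wild-type skin. In reads this is 48, 24 and 49 reads in yellow mutant skin, against 3, 13 and 0 reads in wild-type skin. m0236-5p begins with the same 8 letters and had 1.48, 1.65 and 1.24 RPM in yellow mutant skin, against 0.0961, 0.109 and 0.733 RPM in wild-type skin. Both had no overlap and were higher in the mutant. m0236-5p passed the level filter only through its mutant libraries, so its lack of overlap follows from the filter. So does that of m0371-5p, 1 of the 5 motif miRNAs with an unadjusted p under 0.05 by limma. It had 1.39, 1.76 and 2.88 RPM in yellow mutant skin, against 0.865, 0.873 and 0.733 RPM in wild-type skin.

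m0319-3p, which carries the reverse complement, had 1.91, 1.87 and 2.16 RPM in yellow mutant skin, against 0.384, 0.109 and 1.36 RPM in wild-type skin. The opposite order held for m0070-5p, which contains the motif further in and had 3.30, 4.29 and 1.75 RPM in yellow mutant skin, against 7.11, 7.64 and 6.07 RPM in wild-type skin. m0143-5p has the seed of m0171-5p and had 0, 2.75 and 4.22 RPM in yellow mutant skin, against 3.65, 2.51 and 4.08 RPM in wild-type skin, with no reads in mutant replicate 1. Over the 9 the level summed to 26.4, 21.4 and 26.4 RPM in yellow mutant skin, against 24.3, 18.4 and 19.9 RPM in wild-type skin, and the genotypes overlapped.

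A few miRNAs ranged widely among libraries, and all of these other than miR-122-x were nearly absent from some. Of the 307 miRNAs that reached 4 RPM in some library, 12 had a highest value over 8 times the lowest, 3 of 230 known and 9 of 77 predicted ones. This criterion was set after the values were seen. m0033-3p had 0, 90 and 0 reads in yellow mutant skin, against 93, 111 and 125 reads in wild-type skin, so that mutant replicate 2 was at the wild-type level and the other mutant libraries had none. m0059-5p had 72, 41 and 71 reads in yellow mutant skin, against 0, 2 and 60 reads in wild-type skin, so the pattern lay on the wild-type side. m0135-5p had 11, 9 and 11 reads in yellow mutant skin, against 8, 112 and 89 reads in wild-type skin, low in all mutant libraries and in wild-type replicate 1.

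miR-8159-x had 3, 173 and 276 reads in yellow mutant skin, against 97, 45 and 37 reads in wild-type skin, and miR-378-y, whose relatives lie in a metabolic coactivator gene of mammals, had 118, 1 and 24 reads in yellow mutant skin, against 12, 28 and 7 reads in wild-type skin. In these 2 known miRNAs the low libraries did not follow genotype. Libraries more than 8 times below the highest one were in yellow mutant skin only for 6 of the 12, in wild-type skin only for 4, and in both for 2.

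**Figure D5:**
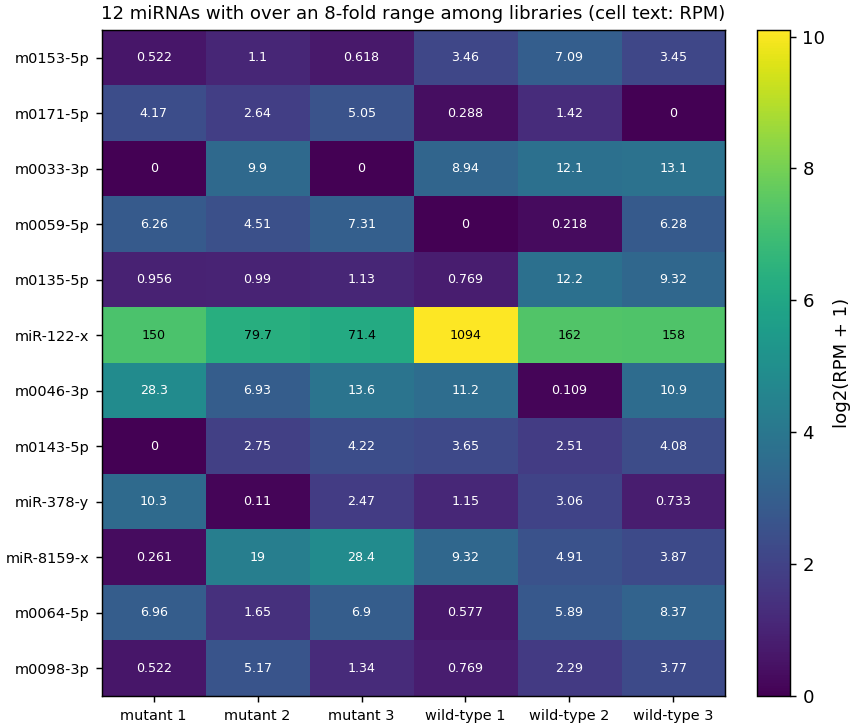
RPM of the 12 miRNAs whose highest library exceeded the lowest by over 8 times, as numbers in the cells and as colour (log2(RPM + 1)), for yellow mutant replicates 1 to 3 (left) and wild-type replicates 1 to 3 (right). The dark cells, such as 0 RPM for m0033-3p in mutant replicates 1 and 3, fall in different libraries in different rows, and miR-122-x is set apart by 1 wild-type library at 1094 RPM.

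The libraries differed in how often they were extreme. Yellow mutant replicates 3 and 2 had the highest of the 6 values in 28.9% and 24.7% of the 433 miRNAs, and replicate 1 in 13.9%. Wild-type replicates 1, 2 and 3 were highest in 6.24%, 10.4% and 15.9%. Wild-type replicate 1 had the lowest value in 27.7%, more often than any other library. Such counts of RPM values depend on the scaling between libraries, and they were not repeated under median-of-ratios scaling. The factors of that scaling were 0.987, 1.06 and 1.09 in yellow mutant replicates 1 to 3. Those of wild-type replicates 1 to 3 were 0.889, 0.929 and 1.08. Among miRNAs with at least 100 RPM the median coefficient of variation was 23.5% in the mutant and 15.8% in wild-type skin (95 miRNAs). Between 10 and 100 RPM it was 29.3% in the mutant and 19.5% in wild-type skin. Below 10 RPM, where 235 of the miRNAs lie, the values were closer, at 36.5% in the mutant and 32.6% in wild-type skin. These are descriptions of 3 libraries a genotype, and the difference in spread was not tested.

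The RNA-Seq libraries of the same genotypes gave the transcripts of the machinery that makes and uses miRNAs, in FPKM (fragments scaled to transcript length and library size). Of 27268 genes tested, 9 passed (0.033%), and 1637 (6.0%) had an unadjusted p under 0.05. Of 20 listed machinery symbols 19 were found, with 48 gene copies, of which 40 were expressed enough to be tested. None passed the adjusted threshold, 23 had positive and 17 negative log2 fold changes, and their median was 0.01, the same as over all genes. drosha, the nuclear enzyme that frees the hairpin, had 2.07, 2.22 and 1.74 FPKM in yellow mutant skin, against 1.96, 1.96 and 1.82 FPKM in wild-type skin. Of the copies of dicer1, which makes the final cut, the more abundant (gene 100136218) had 2.50, 2.52 and 2.85 FPKM in yellow mutant skin, against 2.32, 2.38 and 3.12 FPKM in wild-type skin. Genotypes overlapped in both.

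Only 1 machinery copy had an unadjusted p under 0.05. In 3 of the 40 tested copies every mutant library lay above every wild-type one (7.5%, beside 6.07% of all genes), and in 2 every one lay below (5.0%, beside 4.92%). AGO1 (gene 110488753), an Argonaute that binds the finished miRNA, had 1.28, 1.501 and 1.26 FPKM in yellow mutant skin, against 2.03, 1.93 and 2.005 FPKM in wild-type skin, with every mutant library below every wild-type one (log2 fold change -0.35, limma, Benjamini-Hochberg adjusted p = 0.762). A second copy, ago1 (gene 110516929), had 1.20, 1.45 and 1.10 FPKM in yellow mutant skin, against 0.860, 1.47 and 1.04 FPKM in wild-type skin and overlapped. The other lower copy was AGO2 (gene 110488009), with 3.51, 3.57 and 3.66 FPKM in yellow mutant skin, against 3.77, 4.06 and 4.13 FPKM in wild-type skin, a small log2 fold change of -0.12. The more abundant ago2 copy (gene 110496623) overlapped, with 5.75, 4.65 and 4.79 FPKM in yellow mutant skin, against 5.09, 5.25 and 5.87 FPKM in wild-type skin.

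The 3 copies higher without overlap were of prkra, a Dicer partner, and of TNRC6B and TNRC6C, scaffold proteins through which Argonaute silences messenger RNAs. prkra (gene 110520141) had 3.28, 3.39 and 3.12 FPKM in yellow mutant skin, against 2.56, 3.04 and 2.25 FPKM in wild-type skin. TNRC6B (gene 110538359) had 3.60, 3.57 and 3.34 FPKM in yellow mutant skin, against 2.99, 3.23 and 3.12 FPKM in wild-type skin. TNRC6C (gene 110486907) had 4.97, 4.84 and 4.88 FPKM in yellow mutant skin, against 4.25, 4.46 and 3.59 FPKM in wild-type skin. Their log2 fold changes were 0.24, 0.13 and 0.21, and the other tested copies of these genes overlapped. All copies of lin28a and lin28b, which block let-7 maturation in embryos, were below 0.1 FPKM in every library. Trout genes have near-identical copies, and how their reads were divided is not given, so single copies are uncertain.

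Genes that contain miRNAs in other vertebrates were read in the same table. Of 18 symbols 13 were found, with 34 copies, of which 28 were tested and none passed. At an unadjusted p under 0.05, 1 was higher and 2 were lower, beside 3.41% higher and 2.59% lower over all genes. Without overlap, 3 were higher (10.7%, beside 6.07% of all genes) and 3 lower (10.7%, beside 4.92%). Both lower ones by p were copies of AATK, a kinase gene with miR-338 in an intron in mammals. AATK (gene 110485323) had 29.6, 49.6 and 27.2 FPKM in yellow mutant skin, against 81.7, 62.6 and 58.3 FPKM in wild-type skin, without overlap (log2 fold change -0.94, limma, Benjamini-Hochberg adjusted p = 0.615). AATK (gene 118937792) had 8.70, 5.16 and 8.09 FPKM in yellow mutant skin, against 15.2, 13.2 and 9.45 FPKM in wild-type skin, also without overlap. miR-338-y overlapped between genotypes, with 1161, 1244 and 1386 RPM in yellow mutant skin, against 1425, 1176 and 1199 RPM in wild-type skin. Whether trout AATK copies hold miR-338 was not examined. The third lower copy was Wwp2 (gene 110494212), of the gene that holds miR-140, at a log2 fold change of -0.14, while its other copy wwp2 (gene 110515971) was higher without overlap at 0.29. A CTDSP1 copy (gene 110495449), of a gene family that holds miR-26, was also higher without overlap at 0.29, and its other 2 tested copies overlapped.

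TRPM1, the melanocyte ion channel gene that holds miR-211 in mammals, passed the level filter in 2 copies. The more abundant (gene 110516734) had 97.6, 61.5 and 95.9 FPKM in yellow mutant skin, against 71.5, 67.4 and 106.03 FPKM in wild-type skin. The other (gene 110500983) had 7.81, 7.89 and 10.5 FPKM in yellow mutant skin, against 6.33, 8.86 and 10.8 FPKM in wild-type skin. The genotypes overlapped in both copies, as they did for miR-211-x and miR-204-x. The copies of TRPM3, which holds miR-204 in mammals, were at most 0.153 FPKM in any library, while miR-204-x averaged 13057 ± 1514 RPM in yellow mutant skin and 11939.6 ± 3664 RPM in wild-type skin (SD, n = 3 each). pank2 (gene 110505981), of a family that holds miR-103 and miR-107, had 3.76, 3.05 and 3.74 FPKM in yellow mutant skin, against 2.90, 2.31 and 2.49 FPKM in wild-type skin. It was the host copy higher by p, with no overlap and an adjusted p of 0.811 (limma, Benjamini-Hochberg). The 2 tested PANK1 copies of the same family overlapped and differed in sign. PANK1 (gene 110498993) averaged 2.02 ± 0.483 FPKM in yellow mutant skin and 2.39 ± 0.283 FPKM in wild-type skin (SD, n = 3 each), a log2 fold change of -0.18, and PANK1 (gene 110491396) had a log2 fold change of 0.08. egfl7 (gene 110523367), the endothelial gene that holds miR-126, had 6.57, 5.05 and 5.06 FPKM in yellow mutant skin, against 5.68, 6.12 and 6.05 FPKM in wild-type skin, and overlapped like miR-126-y.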

How the data were processed

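Small RNA reads of the 6 miRNA-Seq libraries were processed by the authors, and their deposited miRNA table gives RPM under the heading TPM, with 0.01 where an entry has no reads, which was set to 0. Fold changes on the log2 scale and a p-value per entry, deposited by the authors, were used only where named. Depth was read from the steps of low RPM values, 100% of which were whole reads within 0.1 read. The authors also deposited the FPKM values of the RNA-Seq libraries, so named per the file headers. Bowtie2 2.2.8 and TopHat2 2.1.1 are listed per the submitters' processing notes, without a role. Genome build, miRNA database and predictor were not given in the sources used here.

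Of the entries, 420 share 173 sequences with another entry, and of entries with 1 sequence that with the highest mean was kept. limma 3.58.1 in R 4.3.3 (eBayes with trend and robust, two-sided) compared log2(RPM + 1) with genotype as the only term, with Benjamini-Hochberg adjustment at 0.05 over 433 miRNAs. Genes with at least 0.5 FPKM in 3 or more of 6 libraries were tested likewise on log2(FPKM + 1), and their names come from RefSeq, assembly USDA_OmykA_1.1. Fold changes on these scales understate changes of low values. On simulated miRNA values of the same 433 miRNAs, 50 were shifted by 1 log2 unit and 50 by 2. Of these, limma recovered 58% and 92%, with 3 false calls. For the 27268 genes, with 100 shifted by each size, these shares were 24% and 70%, with 6 false calls. Many true shifts at once loosen the adjusted threshold. The shifted miRNAs and genes were drawn only from those at higher levels, so recovery at low levels was not measured. These shares therefore do not give the power of the comparison between genotypes.

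Named miRNAs are those past the threshold with a mean of at least 10 RPM in the higher genotype or, where fewer than 8 pass in a direction, those with the smallest p among miRNAs without overlap, then the 10 most abundant and the leading member of each list. Lists are described by counts and medians, without a test, and were matched by family number. The members, lists and tests were chosen with earlier results of these data known. The sequence motif and the criterion for wide ranges among libraries were set after the values were seen. The alternatives tried were other pseudocounts, filters, scaling and limma settings, a replicate block and leaving out each library.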

Additional observations from a re-analysis of the deposited data

How the results depend on the processing

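The count of miRNAs past the adjusted threshold was 0 with a pseudocount of 0.1, with no filter on low values (1032 sequences), with a filter at 10 RPM (200 miRNAs), with every entry kept (519), with median-of-ratios scaling, without trend and robust, and with a replicate block. Leaving out 1 library at a time gave 0 to 1 calls (limma, Benjamini-Hochberg). The 1 call was m0033-3p without yellow mutant replicate 2 (log2 fold change -3.61, adjusted p = 4.36e-04), m0135-5p without wild-type replicate 1 (-2.53, adjusted p = 0.00453) and m0059-5p without wild-type replicate 3 (2.65, adjusted p = 0.00589). In each of these the library left out was the one unlike the others of its genotype, so the smaller p follows from that choice. Counts at an unadjusted p under 0.05, 20 higher and 9 lower, became 43 and 21 with no filter, 13 and 1 with the filter at 10 RPM, 31 and 12 with every entry, and 16 and 14 with median-of-ratios scaling. Without 1 library they ranged from 8 to 39 higher and from 5 to 16 lower, with 39 and 8 without yellow mutant replicate 1 and 8 and 5 without wild-type replicate 2. Whether replicate numbers pair the samples is not given. Deviations of same-numbered miRNA libraries from their genotype means correlated at 0.03, -0.18 and -0.10, which cannot decide it with 3 libraries a genotype. The replicate block gave 19 and 8. The list sums without overlap, 3 higher and 1 lower, became 0 and 0 under median-of-ratios scaling. Between 13 and 18 of the 26 list medians lay above the overall median, against 14. Of 493 values of the 38 named miRNAs under these settings, 27 changed sign, in 15 miRNAs. No machinery or host gene passed under any alternative. Count-based tests on whole reads were planned and not run, since the values of the table are RPM with a placeholder for no reads. The read counts given above were worked out from these RPM values, and no count-based test was applied to them. The counts of calls given here therefore hold for limma alone. At 0.0869 to 0.110 RPM per read, miRNAs near 1 RPM rest on about 10 reads, which limits them.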
